A study of Mus musculus with 9 samples.

Results

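The 4 genes Lck, Clec10a, Adora3 and Alox12, which mature blood cells use in a lineage-restricted way, were read out by poly(A) RNA sequencing of mouse bone marrow cells sorted for c-Kit. They were taken by gene name, as hints of the cell mix in the sort, and are 4 of the 99 genes in the table analysed here. The 9 libraries fell into groups of 3 with the genotype codes NPC, NC and WT. The series describes CMML mice with a conditional Piezo1 knockout, CMML mice (chronic myelomonocytic leukaemia) and control mice, and these are read as NPC, NC and WT from the letters of the codes, which the labels do not spell out. The sources used here do not give age, strain, the disease alleles, the Cre driver or whether each library is a separate animal. P-values therefore measure only how far these libraries spread, and that spread may be technical.

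c-Kit is the stem cell factor receptor of blood stem and progenitor cells, and mast cells keep it when they mature, whereas most mature T cells, macrophages and platelets lack it. Lck encodes the kinase that starts signalling from the T cell receptor. Clec10a encodes a galactose-binding lectin of macrophages and dendritic cells, Adora3 an adenosine receptor known from mast cells and eosinophils, and Alox12 the arachidonate lipoxygenase of platelets and megakaryocytes. In bulk RNA, fewer cells of a type and less RNA per cell cannot be told apart.

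The table gives positions on GRCm39. Lck (ENSMUSG00000000409) lies on the minus strand of chromosome 4 from 129442137 to 129467434 and has 8 annotated transcripts. Adora3 (ENSMUSG00000000562) lies on the plus strand of chromosome 3 from 105778174 to 105816242 with 3 transcripts. Its model overlaps Tmigd3 on the same strand in the GENCODE M21 annotation, so fragments of the shared stretch cannot be assigned to either gene with certainty. Clec10a (ENSMUSG00000000318) lies on the plus strand of chromosome 11 from 70047023 to 70061660 with 8 transcripts, and it has a close paralog, Mgl2, which can share reads with it. Alox12 (ENSMUSG00000000320) lies 70.6 kb further along chromosome 11, on the minus strand from 70132283 to 70146179, with 2 transcripts.

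The start-site windows found for Lck, Adora3 and Alox12 are shown, and no window was available for Clec10a. Each runs from 250 bases before to 50 bases after a RefSeq start on GRCm38.p6, which is not the build of the deposited coordinates. Capitals mark matches on either strand to AGATAA for the GATA factors, AGGAAG for the ETS factors, TGTGGT for the RUNX factors, CANNTG for the E-box and GGGCGG for the GC box, and no 2 matches overlap. The windows matched 3 of the 4 genes, and Lck has an upstream and a downstream start.
Lck upstream start, chr4:129573592-129573891, minus strand: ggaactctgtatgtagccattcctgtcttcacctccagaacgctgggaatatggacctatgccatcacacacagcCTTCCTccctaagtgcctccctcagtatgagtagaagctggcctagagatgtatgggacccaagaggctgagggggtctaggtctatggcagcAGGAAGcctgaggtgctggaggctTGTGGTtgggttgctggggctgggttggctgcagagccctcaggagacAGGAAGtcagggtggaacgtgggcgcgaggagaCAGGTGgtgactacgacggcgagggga
Lck downstream start, chr4:129558323-129558622, minus strand: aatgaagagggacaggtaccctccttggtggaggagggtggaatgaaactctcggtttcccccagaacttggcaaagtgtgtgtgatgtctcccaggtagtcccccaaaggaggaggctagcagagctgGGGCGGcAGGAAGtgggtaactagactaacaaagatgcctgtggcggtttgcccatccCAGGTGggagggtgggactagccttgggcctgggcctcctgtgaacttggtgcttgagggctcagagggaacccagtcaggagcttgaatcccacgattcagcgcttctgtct
Adora3, chr3:105904171-105904470, plus strand: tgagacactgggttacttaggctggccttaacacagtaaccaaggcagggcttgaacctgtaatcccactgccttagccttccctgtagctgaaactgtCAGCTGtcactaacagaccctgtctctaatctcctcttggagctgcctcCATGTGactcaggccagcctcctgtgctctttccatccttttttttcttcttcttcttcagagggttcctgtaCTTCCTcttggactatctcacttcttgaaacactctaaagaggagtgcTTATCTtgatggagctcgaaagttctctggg
Alox12, chr11:70255321-70255620, minus strand: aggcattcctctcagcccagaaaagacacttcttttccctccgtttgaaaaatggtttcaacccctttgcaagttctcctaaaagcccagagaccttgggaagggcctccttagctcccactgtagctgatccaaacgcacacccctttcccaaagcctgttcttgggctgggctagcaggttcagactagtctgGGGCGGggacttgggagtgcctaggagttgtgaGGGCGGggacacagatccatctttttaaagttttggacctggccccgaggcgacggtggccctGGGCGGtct
Both Lck windows hold AGGAAG, 3 times at the upstream start and 1 time at the downstream start, a motif found in 35.4% of 32851 RefSeq windows of this length. TGTGGT, found in 16.8% of windows, stands at the upstream Lck start. The Adora3 window holds AGATAA on the minus strand, 20 bases after the start, a motif found in 11.2% of windows, and AGGAAG 1 time. GGGCGG, found in 35.7% of windows, occurs 3 times in the Alox12 window, which holds none of the other 4 motifs, and 1 time at the downstream Lck start. CANNTG, found in 72.3% of windows, occurs 2 times in the Adora3 window and 1 time in each Lck window. The shares count windows with at least 1 match, so they give no background for repeated matches, and the motifs were chosen after the windows were seen. These matches describe letters and were not tested as binding sites.

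Lck was the most abundant of the 4 genes per transcript length. It ranked 47 of 99 by mean FPKM (fragments per kilobase of transcript and scaled to library size), at 4.42 FPKM over the 9 libraries. Clec10a ranked 60 at 1.18 FPKM and reached 1 FPKM in 7 libraries. Adora3 at 0.338 FPKM and Alox12 at 0.317 FPKM ranked 69 and 70 and stayed under 1 FPKM in all 9 libraries, so the comparisons of the 4 genes between groups rest on estimated counts, and ratios between genes on FPKM. The lowest values above 0 in the table gather at 4 counts (14 of 891 values, against 0 values of 1 and 1 value each of 2 and 3), so about 4 counts may stand for 1 sequenced fragment, which was not tested. On that scale Adora3 would rest on 11.5 to 47 fragments per library and Alox12 on 19.25 to 38.75. Counts were scaled to equal depth, which differed by up to 1.15-fold between libraries.

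**Figure D1:**
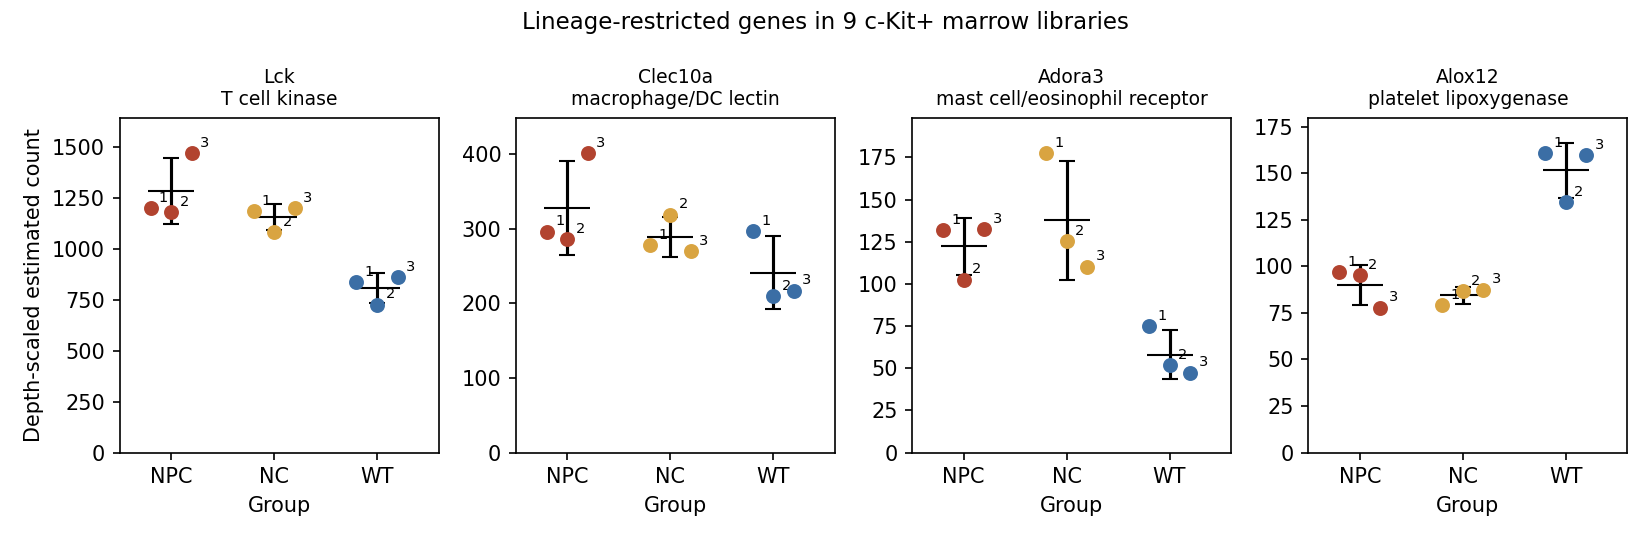
Depth-scaled estimated counts (vertical axes, each from 0) of the 4 genes in the NPC, NC and WT libraries; numbers are replicates, bars the mean and SD of 3 libraries. All 6 NPC and NC libraries lie above the WT libraries for Lck and Adora3 and below them for Alox12, while the groups overlap for Clec10a.

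Lck, the T cell kinase gene, rose in NC and in NPC cells against WT cells. The depth-scaled counts were 1199, 1179 and 1467 in NPC replicates 1 to 3, while the NC replicates had 1185, 1080 and 1199 and the WT replicates 835, 726 and 862. The lowest NC library stood above the highest WT library, and the NPC and NC libraries overlapped. Lck was 1.43-fold higher in NC than in WT, a log2 fold change of 0.52 ± 0.09 (SE; 95% interval 0.33 to 0.70; edgeR adjusted p = 1.34e-06), higher in 3 of 3 NC libraries. It was 1.59-fold higher in NPC than in WT, a log2 fold change of 0.67 ± 0.09 (0.48 to 0.85; edgeR adjusted p = 6.88e-10). Between NPC and NC the log2 fold change was 0.15 ± 0.09 (-0.03 to 0.33; edgeR adjusted p = 0.350), and it was 0.04 without NPC replicate 3, the library with the highest Lck. The spread of Lck in NPC, a coefficient of variation of 12.5%, was above the 5.57% that counting would give at 4 counts per fragment, while NC (5.63% against 5.80%) and WT (8.94% against 7.15%) lay near it.

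Adora3, the mast cell and eosinophil adenosine receptor gene, rose by the largest factor of the 4 genes. The depth-scaled counts were 131.7, 102.5 and 132.4 in NPC replicates 1 to 3, while the NC replicates had 177.3, 125.2 and 110.2 and the WT replicates 74.9, 52.0 and 47.4. Every NPC and NC library stood above every WT library, and NC replicate 1 was the highest of all. Adora3 was 2.38-fold higher in NC than in WT, a log2 fold change of 1.25 ± 0.25 (SE; 95% interval 0.76 to 1.74; edgeR adjusted p = 1.22e-05), and of 1.02 without NC replicate 1 (edgeR adjusted p = 0.00120). It was 2.11-fold higher in NPC than in WT, at 1.08 ± 0.25 on the log2 scale (0.58 to 1.58; edgeR adjusted p = 0.000161). By absolute log2 fold change Adora3 stood at rank 3 of the 80 tested genes for NC against WT and at rank 4 for NPC against WT. From NC to NPC the difference was -0.17 ± 0.22 (-0.62 to 0.27; edgeR adjusted p = 0.720), and 0.06 without NC replicate 1. The coefficient of variation of Adora3 was 14.0% in NPC, 25.6% in NC and 25.4% in WT, where counting at 4 counts per fragment would give 18.0% in NPC, 16.8% in NC and 26.7% in WT.

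Alox12, the platelet lipoxygenase gene, fell in NC and in NPC cells. The depth-scaled counts were 96.9, 95.2 and 77.8 in NPC replicates 1 to 3, while the NC replicates had 79.2, 86.6 and 87.6 and the WT replicates 160.7, 134.3 and 159.6. Every NPC and NC library stood below every WT library, and NPC and NC overlapped. Alox12 in NC was at 0.558 times the WT level, a log2 fold change of -0.84 ± 0.23 (SE; 95% interval -1.29 to -0.39; edgeR adjusted p = 0.00129), lower in 3 of 3 NC libraries. In NPC it was at 0.595 times the WT level, a log2 fold change of -0.75 ± 0.23 (-1.20 to -0.30; edgeR adjusted p = 0.00306). The difference between NPC and NC was 0.09 ± 0.24 (-0.38 to 0.57; edgeR adjusted p = 0.874). Alox12 ranked 7 of 80 by absolute change for NC against WT and 11 for NPC against WT. Its coefficient of variation, 11.7% in NPC, 5.40% in NC and 9.84% in WT, was below the 21.0%, 21.5% and 16.5% that counting would give at 4 counts per fragment in the same groups. At 1 count per fragment counting would give 10.5% in NPC, 10.7% in NC and 8.26% in WT.

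Clec10a, the macrophage and dendritic cell lectin gene, did not pass in NC against WT. The depth-scaled counts were 296.3, 286.8 and 401.3 in NPC replicates 1 to 3, while the NC replicates had 278.2, 319.3 and 270.3 and the WT replicates 297.5, 209.8 and 217.3. The groups overlapped in each comparison, and WT replicate 1 lay among the NC and NPC libraries. The log2 fold change of NC against WT was 0.26 ± 0.16 (SE; 95% interval -0.06 to 0.59; edgeR adjusted p = 0.190). It was 0.44 without WT replicate 1 (edgeR adjusted p = 0.0391). Clec10a was 1.36-fold higher in NPC than in WT, a log2 fold change of 0.44 ± 0.16 (0.12 to 0.77; edgeR adjusted p = 0.0138). That call rested on single libraries, with log2 fold changes of 0.28 without NPC replicate 3 (edgeR adjusted p = 0.195), 0.35 without WT replicate 2 (0.103) and 0.38 without WT replicate 3 (0.0898). From NC to NPC the log2 fold change was 0.18 ± 0.16 (-0.13 to 0.50; edgeR adjusted p = 0.549), and 0.01 without NPC replicate 3. NPC replicate 3 held the highest depth-scaled Lck, Clec10a and Adora3 and the lowest Alox12 of its group. For Adora3 its lead over NPC replicate 1 was small (132.4 against 131.7).

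**Figure D2:**
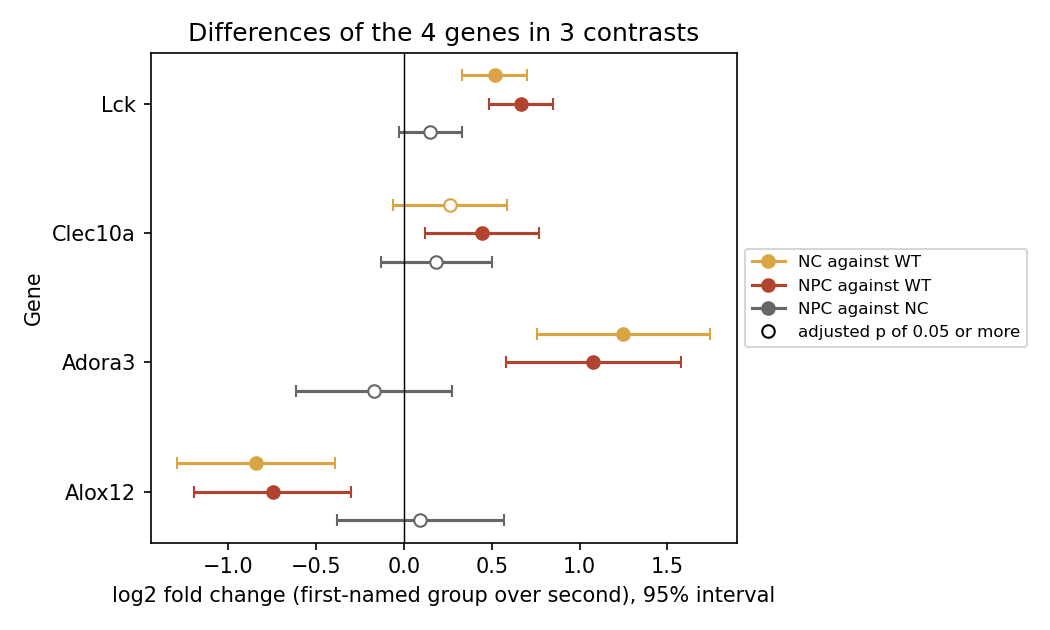
Log2 fold changes (horizontal axis, with 95% intervals) of the 4 genes (vertical axis) in 3 contrasts; open points had an adjusted p of 0.05 or more. Against WT, Lck and Adora3 were higher and Alox12 lower in both groups, and each NPC against NC interval includes 0.

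In NC against WT, 3 of the 4 genes passed, where 48.8% of the 80 tested genes did. Of the 4, 2 were higher, against 27.5% of the tested genes, and 1 was lower, against 21.2%. For 3 of the 4 genes NC and WT did not overlap, as for 53.8% of the tested genes. In NPC against WT all 4 genes passed, where 61.3% of the tested genes did, with 3 higher, against 31.2%, and 1 lower, against 30.0%. NPC and WT did not overlap for 3 of the 4, as for 60.0% of the tested genes. In NPC against NC the number passing was 0 of 4, where 11.2% of the tested genes passed (edgeR quasi-likelihood test, adjusted over the 80 genes in each comparison). At an unadjusted edgeR p under 0.05 it was 0 of 4, against 21.2% of the tested genes. With DESeq2 it was 0 of 4, against 13.8%, and with limma on log2(FPKM + 1) 0 of 4, against 11.2%. NPC and NC overlapped for each of the 4 genes, while 22.5% of the tested genes did not overlap. The median absolute log2 fold change of the 4 genes was 0.68 for NC against WT, 0.71 for NPC against WT and 0.16 for NPC against NC, beside 0.15, 0.18 and 0.07 over all tested genes. Low genes vary more, and all 4 lie below most tested genes in count, so these medians are not compared further. Both comparisons against WT use the same 3 WT libraries.

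**Figure D3:**
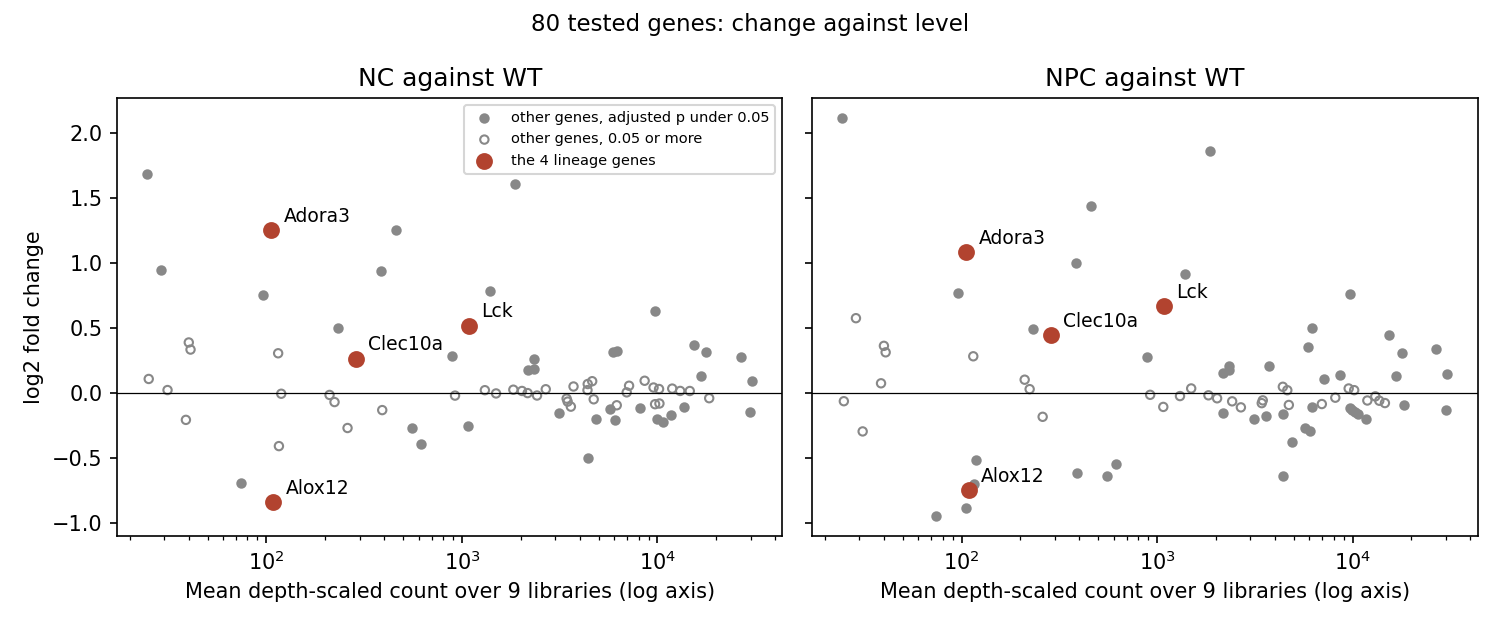
Log2 fold change (vertical axis) against the mean depth-scaled count (log axis) of the 80 tested genes; filled grey points passed an adjusted p of 0.05, and the 4 lineage genes are red whether they passed or not. Adora3 and Alox12 lie among the low genes, where changes in either direction are widest.

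The order of the lower genes differed between the groups. Adora3 exceeded Alox12 in FPKM in each NPC library, by 1.48, 1.19 and 1.86 times, and in each NC library, by 2.46, 1.58 and 1.37 times, whereas Adora3 was at 0.505, 0.409 and 0.319 times Alox12 in the WT libraries. The ratio of Lck to Alox12 in FPKM was 17.3, 17.5 and 26.4 in NPC, 20.9, 17.4 and 19.2 in NC, and 7.26, 7.53 and 7.53 in WT. These ratios are per transcript length, and they combine the differences tested above. The ratio of Lck to Clec10a overlapped between all groups, at 3.63 to 4.12 in NPC, 3.35 to 4.42 in NC and 2.80 to 3.97 in WT.

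The cell type lists held few genes of the table. Of 18 T and NK cell genes the table held 1 (Lck), of 14 macrophage and dendritic cell genes 1 (Clec10a), of 14 mast cell, basophil and eosinophil genes 1 (Adora3) and of 13 megakaryocyte and platelet genes 1 (Alox12). Each lineage thus rests on a single gene. None of the 8 stem and progenitor genes, Kit included, was analysed here, so the sort could not be checked, and the same holds for the 8 B cell genes and the 6 endothelial and stromal genes. The neutrophil list held 1 of 11 genes, Itgb2l, a leukocyte integrin gene, which rose to 47.8 ± 1.11 FPKM in NPC and 45.3 ± 2.33 FPKM in NC, against 35.1 ± 0.655 FPKM in WT (SD, n = 3 each; edgeR adjusted p = 1.43e-19 and 5.69e-15). The pan-leukocyte gene Itgb2 (CD18) rose by 0.34 ± 0.04 in NPC and by 0.27 ± 0.04 in NC on the log2 scale (± SE; edgeR adjusted p = 7.55e-15 and 8.50e-11). The erythroid list held 1 of 9 genes, Gmpr, a purine salvage enzyme gene, with log2 fold changes of -0.11 ± 0.09 in NPC (edgeR adjusted p = 0.312) and -0.25 ± 0.09 in NC (edgeR adjusted p = 0.0156), the second lost without WT replicate 2 (0.103) or NC replicate 2 (0.0646). The epithelial list held 1 of 4 genes, the E-cadherin gene Cdh1, with log2 fold changes of 0.49 ± 0.18 in NPC and 0.50 ± 0.18 in NC (edgeR adjusted p = 0.0134 and 0.0156). The call of Cdh1 in NC was lost on leaving out WT replicate 1 (0.0663) or 3 (0.0531), or NC replicate 1 (0.0848) or 2 (0.0768), and that in NPC without WT replicate 1 (0.0557) or NPC replicate 3 (0.101). The part of other cell types in the differences of Lck, Adora3 and Alox12 was not tested.

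Genes near the 4 on the chromosome were looked up within 200 kb and chosen after their values were seen. Bcl6b, a transcriptional repressor gene, lies between Clec10a and Alox12, 11.7 kb from Alox12. It had 0.388 ± 0.0412 FPKM in NPC, 0.396 ± 0.0794 in NC and 0.320 ± 0.0166 in WT (SD, n = 3 each). Its log2 fold changes of 0.28 ± 0.23 in NPC and 0.30 ± 0.23 in NC against WT did not pass (± SE, edgeR adjusted p = 0.306 and 0.296). NPC and WT did not overlap for Bcl6b, as for 60.0% of the tested genes. Its neighbour Alox12 had 0.262 ± 0.0307 FPKM in NPC, 0.247 ± 0.0133 in NC and 0.443 ± 0.0430 in WT, and fell as given above. Wdr77, a methylosome subunit gene 50.4 kb from Adora3, had 16.6 ± 0.284 FPKM in NPC, 17.7 ± 0.258 in NC and 17.6 ± 0.402 in WT. Its log2 fold change of -0.09 ± 0.04 in NPC against WT did not pass (edgeR adjusted p = 0.0629), though the groups did not overlap. It passed with DESeq2 (0.0315) and with limma on log2(FPKM + 1) (0.0378) or log2(FPKM + 0.1) (0.0489). With edgeR it passed on summed counts as library size (0.00214) and without NPC replicate 1 (0.0447). Under the other alternatives Wdr77 did not pass. Atp5pb, an ATP synthase subunit gene 33.8 kb from Adora3, had 52.0 ± 1.93 FPKM in NPC, 54.0 ± 0.329 in NC and 55.5 ± 1.82 in WT. Atp5pb fell in NPC against WT, where Adora3 rose, by 0.10 ± 0.04 on the log2 scale (± SE; edgeR adjusted p = 0.0199), lower in 3 of 3 NPC libraries. That call was lost without WT replicate 3 (0.141) or NPC replicate 2 (0.148) and with TMM scaling (0.0537). In NC against WT Atp5pb had a log2 fold change of -0.04 ± 0.04 and did not pass (edgeR adjusted p = 0.402), while it passed with summed counts as library size (0.0265). NC and WT did not overlap for Atp5pb, as for 53.8% of the tested genes. Tssk3, 57.3 kb from Lck and a kinase gene known from testis, had 6 to 11 counts per NPC library, 7 to 29 per NC library and 0 to 13 per WT library and was not tested.

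Among 76 other tested genes, those with the profile most like each of the 4 were found by the root mean square difference between centred log2 profiles over the 9 libraries. Lck was closest to Gm2a, a lysosomal lipid-binding cofactor gene (0.11), and Hk2, the hexokinase 2 gene (0.14), against a median of 0.33 over the 76 genes. Adora3 was closest to Tamalin, a scaffold protein gene (0.30), and Haao, an enzyme gene of tryptophan breakdown (0.33), against a median of 0.61. Axin2, the gene of an inhibitor of Wnt signalling, was among the 2 genes closest to Alox12 (0.27, against a median of 0.40). Clec10a was closest to Septin1, a cytoskeletal GTPase gene (0.19), and Scpep1, a carboxypeptidase gene (0.20), against a median of 0.29.

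NC replicates 2 and 3 differed little. A chi-square over the 80 genes divided by its degrees of freedom was 4.54 on the deposited counts and 1.13 (p = 0.193) when 4 counts were taken as 1 fragment, against 1.31 to 2.67 for the other pairs within a group. They were kept as separate libraries, since the count scale is inferred. With both averaged into 1 library, the log2 fold changes of NC against WT were 0.53 for Lck, 1.35 for Adora3 and -0.86 for Alox12 (edgeR adjusted p = 2.10e-06, 2.19e-06 and 0.00291) and 0.25 for Clec10a (0.276), so each stayed on its side of the threshold.

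**Figure D4:**
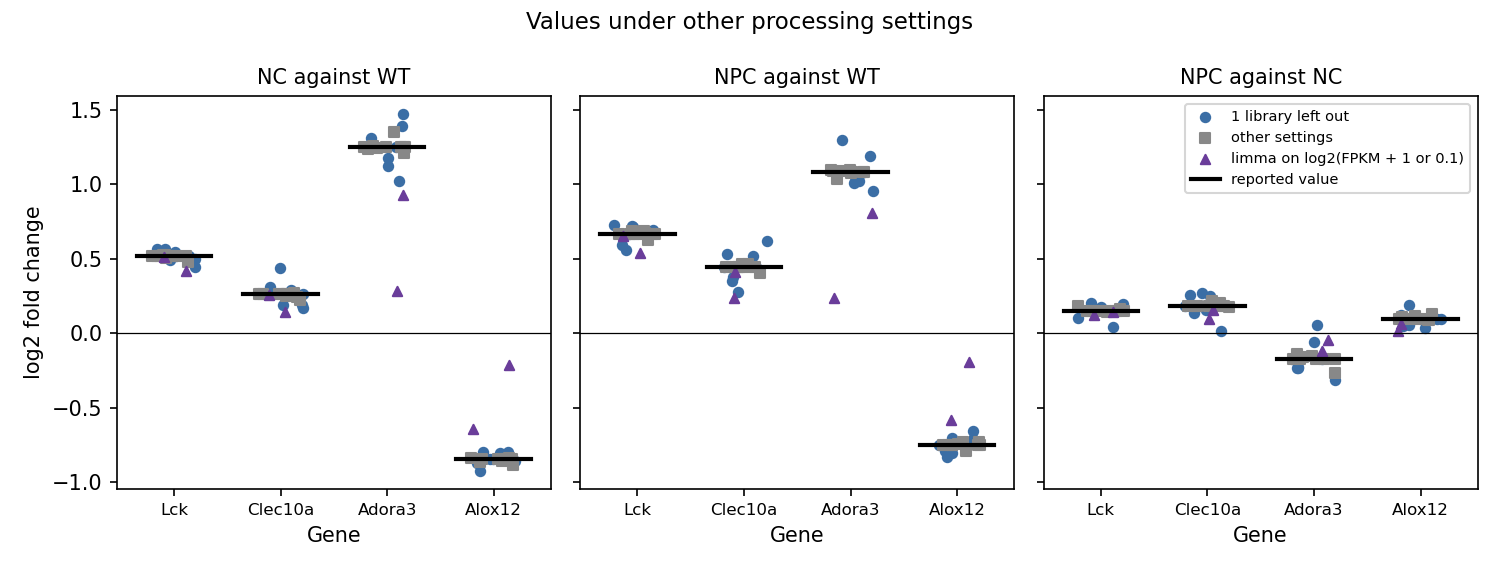
Log2 fold changes (vertical axis) of the 4 genes under other settings, with the reported value as a black line, 1 library left out as circles, limma on log2(FPKM + 1 or 0.1) as triangles and other settings as squares. Adora3 and Alox12 move toward 0 in the limma fits, where the added constant is large beside their FPKM.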

How the data were processed

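RNA of c-Kit+ bone marrow cells was made into strand-marked poly(A) libraries, per the labels' protocols. Per the submitters' processing notes, the build was GRCm39 and the tools include StringTie 2.1.6, HISAT2 2.2.1 and cutadapt 1.9. The authors deposited FPKM values and, in the same table, estimated counts per gene, which are whole numbers and not normalized. The sources used here do not say how multi-mapping reads and strand were handled.

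Relative depth was taken from the ratio of count to FPKM in 61 genes that had 200 counts or more per library throughout (100% of values within 1% of the fitted ratio). It served as library size, and a depth-scaled count is the count divided by it. Genes with a mean of at least 20 counts over all 9 libraries were tested (80 of 99), and all 4 genes described passed. This minimum replaced one of 1 FPKM in 3 libraries, which Adora3 and Alox12 miss. edgeR 4.0.16 (R 4.3.3) was run as a two-sided quasi-likelihood test in 1 fit of 9 libraries with group means, with Benjamini-Hochberg adjustment over 80 genes and a threshold of 0.05. The script was tested on simulated data.

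The 4 genes, the lists and the tests were chosen with earlier results of these data known. Genes named besides the 4 were those of the cell type lists, the 2 most alike by profile, and neighbours within 200 kb; 1 gene that this rule names is not reported here. Promoter windows come from RefSeq (GRCm38.p6), and the motifs were chosen after the windows were seen. Alternatives used limma 3.58.1, DESeq2 1.42.0, other scalings, filters and library sets. Python 3.11.15, pandas 2.3.3 and matplotlib 3.10.9 made tables and figures.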

Additional observations from a re-analysis of the deposited data

How the results depend on the processing

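Lck in both comparisons against WT, and Adora3 and Alox12 in the same comparisons, kept their direction and their call under each alternative that gave a value: 22 for Lck and 21 each for Adora3 and Alox12, which the minimum of 1 FPKM leaves out. The log2 fold change of NC against WT ran from 0.41 to 0.57 for Lck, from 0.28 to 1.47 for Adora3 and from -0.92 to -0.21 for Alox12. The values nearest 0 come from limma on log2(FPKM + 1), which shrinks genes under 1 FPKM by its construction. With 1 library left out, Clec10a ran from 0.17 to 0.44 for NC against WT, passing without WT replicate 1, and from 0.28 to 0.62 for NPC against WT. The difference of Adora3 between NPC and NC, which did not pass, ran from -0.31 to 0.06 and turned positive without NC replicate 1 (0.058). The number of genes that passed in NPC against NC was 9, ran from 3 to 15 with 1 library left out, and was 4 with NC replicates 2 and 3 averaged. In that comparison 4 genes were higher and 5 lower. The neighbour Wdr77, near 0 in NC against WT (0.0041), turned negative with median of ratios scaling (-0.0100), summed counts as library size (-0.037) and NC replicates 2 and 3 averaged (-0.0014), and ran from -0.012 to 0.020 with 1 library left out. The cause was not tested.

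Replicate numbers are shared between groups, and correlations of same-numbered libraries' deviations ran from -0.29 to 0.51. With 3 libraries per group this check cannot decide whether same-numbered libraries share more than a number. With the number as a replicate block, 10 genes passed in NPC against NC (9 without it), 39 in NC against WT (39) and 49 in NPC against WT (49), and no call on the 4 genes changed. Of 6 libraries per pair of groups, 1, 1 and 2 correlated best with their own number. Adora3 and Alox12 have low counts and wider intervals than Lck and Clec10a, so smaller changes could have been missed. The smallest change that could be detected was not estimated.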
